A study of Homo sapiens with 6 samples.

Results

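The compact sites of acetylated NEIL1 (AcNEIL1) in HCT116 cells were short stretches of chromatin at which a peak was called in every replicate. NEIL1 is a DNA glycosylase, an enzyme that cuts oxidised bases out of DNA, and a custom rabbit antibody was used against its acetylated form. HCT116 is a human colorectal adenocarcinoma line, here taken during exponential growth with no treatment named. The series held 3 AcNEIL1 ChIP libraries and 3 input libraries of the same cells, and each ChIP list was called against the input of the same number. No second condition and no knockout was among the samples. The labels do not state that the replicates are separate cultures, and p-values therefore measure only the spread of these libraries, which may be technical. The sites were chosen by a rule that uses the peak calls themselves: peaks of the 3 lists on chromosomes 1 to 22 were merged where they overlapped by at least 1 bp, and merged regions of 800 bp or narrower with a peak from each replicate were kept. That left 1232 of 85138 merged regions. They were 10.9% of the 11301 regions shared by the 3 replicates, and the other 10069 shared regions were broad, with a median width of 1893 bp. Of the 66384 regions within the width limit, 1.86% had a peak from each replicate, against 13.3% of all merged regions. Both shares follow from the rule and are given as description.

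Base excision repair starts with a glycosylase that cuts the damaged base from the sugar, after which an endonuclease, a polymerase and a ligase restore the strand. Acetylated NEIL1 is a chromatin-bound form of one such glycosylase. In chromatin immunoprecipitation with sequencing, bound fragments pile up around a contact point, and the position of the highest pileup, the summit, is the caller's estimate of that point. A compact site is thus a place where 3 separate summits can be set side by side within a short stretch of DNA.

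The few promoters that held a compact site with all of its summits are shown first, because they are the members for which sequence could be read. RefSeq windows reach from 250 bases before a gene's start to 50 after it, in GRCh38.p14, the build of the peaks. Of 33558 such windows in the table, 4 held the 3 summits of a compact site. A start is that of a listed transcript and need not be the outer end of the gene: in the gene table XPO1 reaches 1525 bp and FAM163A 15515 bp farther upstream, so their sites lie inside the gene, while FAM246C and LOC124903346 begin at the start shown. The 250 bases before the start are printed 5′ to 3′ on the strand of the gene. Capitals mark the matches to 5 motifs searched on both strands, none of which contains another. The GC box was searched as GGGCGG, the box named for its letters as CCAAT and the TATA box as TATAAA. The binding motif of AP-1 was searched as TGANTCA and the E-box as CACGTG. FAM246C lies on chromosome 22 (chr22:19029274-19029523, plus strand). XPO1, the gene of a nuclear export receptor, lies on chromosome 2 (chr2:61537088-61537337, minus strand). FAM163A lies on chromosome 1 (chr1:179743041-179743290, plus strand). LOC124903346 lies on chromosome 14 (chr14:74552065-74552314, plus strand).
FAM246C: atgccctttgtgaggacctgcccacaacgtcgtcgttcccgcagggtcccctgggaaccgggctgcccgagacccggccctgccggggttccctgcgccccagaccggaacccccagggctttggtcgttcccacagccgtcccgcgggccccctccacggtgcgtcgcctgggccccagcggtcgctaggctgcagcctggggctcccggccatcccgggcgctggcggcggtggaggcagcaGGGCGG
XPO1: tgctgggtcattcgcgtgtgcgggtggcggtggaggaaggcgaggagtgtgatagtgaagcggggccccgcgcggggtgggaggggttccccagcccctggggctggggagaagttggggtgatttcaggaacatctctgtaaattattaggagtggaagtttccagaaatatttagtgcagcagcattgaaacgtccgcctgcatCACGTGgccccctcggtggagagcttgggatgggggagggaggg
FAM163A: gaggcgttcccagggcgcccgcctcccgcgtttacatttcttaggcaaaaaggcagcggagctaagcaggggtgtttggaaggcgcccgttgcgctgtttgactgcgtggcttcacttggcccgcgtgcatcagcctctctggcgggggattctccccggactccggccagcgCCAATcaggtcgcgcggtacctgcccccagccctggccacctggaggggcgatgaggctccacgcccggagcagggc
LOC124903346: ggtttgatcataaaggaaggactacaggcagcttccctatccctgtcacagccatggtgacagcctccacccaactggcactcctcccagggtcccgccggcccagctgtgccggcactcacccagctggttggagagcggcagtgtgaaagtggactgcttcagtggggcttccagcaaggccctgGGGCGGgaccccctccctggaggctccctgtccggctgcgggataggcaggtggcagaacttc

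At FAM246C the summits of replicates 1, 2 and 3 lay at -47, -73 and -176 relative to the start, in a region of 696 bp. The authors' fold enrichment, the ratio of pileup to local background with 1 added to each, was 3.33, 4.31 and 3.69 there, a mean of 3.78 ± 0.492 (SD, n = 3). The printed stretch was 75.2% G and C and held a GC box at its very end, beside the start. At the XPO1 start shown the summits lay at -108, -153 and -235, with folds of 3.66, 3.29 and 4.34 and a mean of 3.76 ± 0.533 (SD, n = 3). Its stretch had 60.4% G and C and an E-box. At FAM163A the summits of replicates 2 and 3 lay at -193 and -209 and that of replicate 1 lay 29 bases after the start. The folds were 3.68, 3.10 and 3.84, with a mean of 3.54 ± 0.390 (SD, n = 3), and the stretch (67.6% G and C) held a CCAAT box. At LOC124903346 the summits lay at -108, -30 and -47, within 78 bp of each other, with folds of 3.21, 3.25 and 3.51 and a mean fold of 3.32 ± 0.161 (SD, n = 3). Its stretch (64% G and C) held a GC box and had the lowest CpG ratio (observed over expected) of the 4, at 0.274 against 0.710, 0.665 and 0.770 for FAM246C, XPO1 and FAM163A.

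A summit of at least 1 replicate of a compact site fell in 23 promoter windows. Their median G and C content was 61.6%, against 58% over all windows, and their median CpG ratio was 0.665, against 0.557. The 313 windows with a summit of a broad shared region had a median G and C content of 63.6% and a median CpG ratio of 0.361. The GC box was found in 13 of the 23 windows (56.5%), against 42.6% of all windows of the same length. The CCAAT box was found in 5 (21.7% against 31.8%), the TATA box in 1 (4.35% against 10.8%) and the E-box in 1 (4.35% against 6.28%). AP-1 was found in none of the 23 (6.55% of all windows). These matches describe the letters of the windows, and with 23 windows the shares are imprecise.

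Beside broad shared regions the compact sites were weak peaks, with a fold like that of other compact regions. In replicates 1, 2 and 3 the median fold at a site was 3.36, 3.30 and 3.56, and the median pileup at the summit was 20, 21 and 19.1 tags. The lowest and highest folds were 1.34 and 7.84 in replicate 1, 1.41 and 6.83 in replicate 2 and 1.40 and 8.54 in replicate 3. A fold of 5 or more was reached at 29, 40 and 50 sites, and in all replicates together at 2 sites. The caller's −log10 q was 5 or more in every replicate at 80 sites (6.49%), while 29.8% of all shared regions met that mark. Taken replicate by replicate, 31.6% ± 8.54 of compact sites met it. Among compact regions of 2 replicates and of 1 replicate, 23.4% ± 7.15 and 16.6% ± 6.12 did (SD, n = 3 for each). Peak strength bears on whether a peak is called and how wide it is, so these values describe what the rule took in. Over the 3 replicates the median fold averaged 3.40 ± 0.134 at compact sites, 3.41 ± 0.101 at compact regions of 2 replicates and 3.40 ± 0.121 at compact regions of 1 replicate (SD, n = 3). Broad shared regions stood higher, at 3.94 ± 0.201 (SD, n = 3). They can hold several peaks of a replicate, of which the highest in fold was taken, so the comparison is not of like with like. Median pileup among compact regions averaged 17.4 ± 1.43 tags with 1 replicate, 19.0 ± 0.936 with 2 and 20.0 ± 0.960 with 3 (SD, n = 3). The order was the same within each library, at 17, 19 and 20 tags in replicate 1, 19, 20 and 21 in replicate 2 and 16.2, 18.1 and 19.1 in replicate 3.

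**Figure D1:**
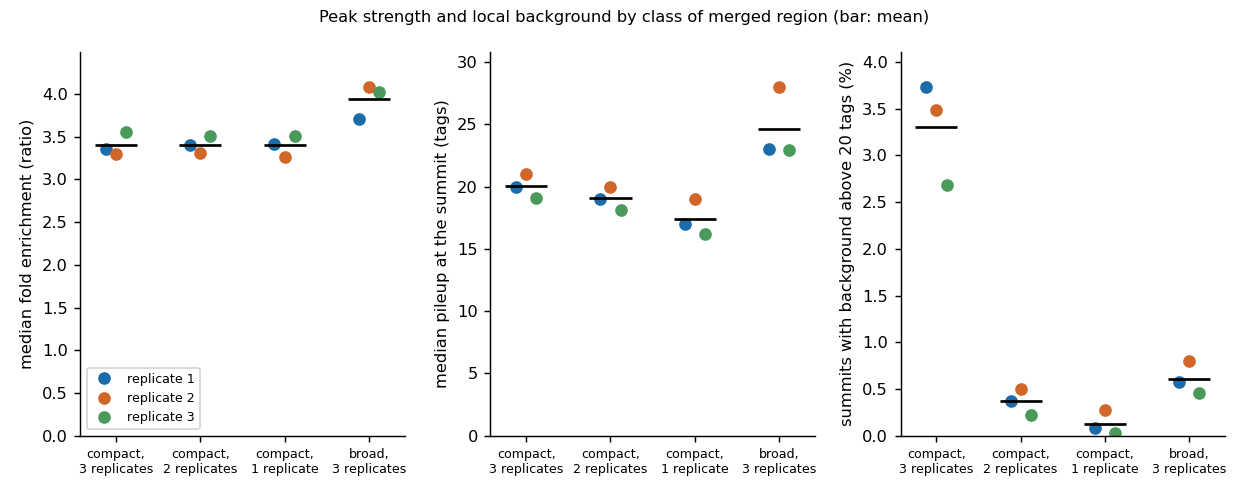
Median fold enrichment (ratio), median pileup at the summit (tags) and share of summits with a local background above 20 tags (%), for 4 classes of merged region. Points are the 3 replicates and bars their means; compact sites in 3 replicates share their fold with other compact regions and have the highest share of summits over a high background, 3.30% on average.

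A strong site in one library was only loosely a strong site in the next. Pearson's r of log2 fold across the 1232 sites was 0.20 for replicates 1 and 2, 0.27 for 1 and 3 and 0.23 for 2 and 3, and Spearman's rho was 0.159, 0.191 and 0.189. Without the 41 sites whose mean local background was above 20 tags, described later, r was 0.13, 0.16 and 0.15 and rho 0.128, 0.152 and 0.161 over 1191 sites. Across the 10069 broad regions r was 0.28, 0.34 and 0.33. The points share their libraries and the same calling cutoff, and the values are given as description. At a typical site the highest of the 3 folds was 1.32 times the lowest, and at 29 sites it was more than 2 times the lowest.

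The sites highest in mean rank of fold included 2 with pileups far above the rest. The first lay on chromosome 5 at 180658290 to 180658941, between genes and 8296 bp from FLT4, which encodes a lymphatic endothelial growth factor receptor. Its fold was 6.24, 6.83 and 6.35 in order of replicate, averaging 6.47 ± 0.314 (SD, n = 3), on pileups of 193, 209 and 164 tags. The second lay on chromosome 7 at 155328354 to 155329150, inside the long non-coding RNA gene LOC105375592 and 18522 bp from INSIG1, a regulator of cholesterol synthesis. It had the highest mean fold of all sites, 7.40 ± 1.41 (SD, n = 3; 7.84, 5.82 and 8.54), on pileups of 182, 169 and 139 tags. These 2 sites were the only ones with a fold of 5 or more in every replicate, and their summits agreed to within 42 and 7 bp.

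The other 8 of the 10 sites had mean folds from 4.68 to 5.31 on pileups of 16 to 35 tags. One was intergenic, on chromosome 2 at 181780945 to 181781617, and the nearest protein-coding gene, the neuronal transcription factor gene NEUROD1, was 100759 bp away. Its fold was 5.73, 4.36 and 5.83. The site on chromosome 11 at 73785098 to 73785755, 2367 bp from the mitochondrial ribosomal protein gene MRPL48, had the most even folds of the 10, 4.80, 5.06 and 4.90. Sites inside genes lay in CAMTA1, a transcription factor gene (chromosome 1, 7463207 to 7463919, mean fold 4.80 ± 0.809), and in ADAMTS13, the gene of the protease that cuts von Willebrand factor (chromosome 9, 133442343 to 133443138, 4.74 ± 0.568; SD, n = 3 for both). Another lay in the long non-coding RNA gene SCIRT (chromosome 6, 44042483 to 44043200, 4.73 ± 0.627; SD, n = 3). A site on chromosome 6 at 32009025 to 32009681 lay 5470 bp from C4B, a complement gene, and inside the pseudogene TNXA, with folds of 4.08, 5.08 and 4.90. The remaining sites were at ends of TMEM270 and HSPA9 and are described with the gene ends. Positions within genes (exons, introns and UTRs) were not used here.

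**Figure D2:**
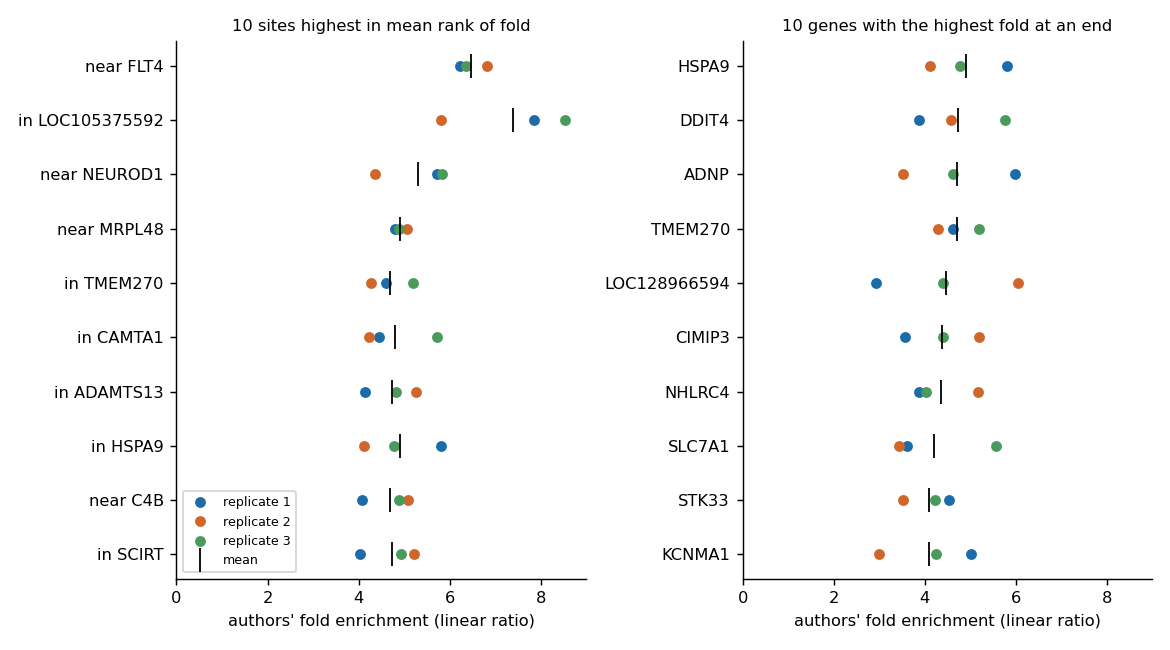
Authors' fold enrichment (linear ratio) in replicates 1, 2 and 3 and its mean, for the 10 sites highest in mean rank of fold, labelled by the gene they lie in or the nearest protein-coding gene, and for the 10 protein-coding genes with the highest fold at an end. The site near FLT4 and the site in LOC105375592 stand above 5.8 in every replicate. Among the 10 genes the replicates lie farthest apart at LOC128966594, from 2.93 to 6.04.

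Summits of the 3 replicates fell near each other but seldom together. The range from the first to the last of the 3 summits of a site had a median of 235.5 bp (quartiles 141 and 330 bp), in regions with a median width of 669 bp. It was 100 bp or less at 183 sites (14.9%), 50 bp or less at 77 (6.25%) and over 400 bp at 156. The width limit bounds this range, and it grew with width, from a median of 135 bp in regions of up to 500 bp to 301.5 bp in those over 700 bp. Broad shared regions, which can hold several peaks of a replicate, had a median range of 752 bp. No replicate stood apart: the summit farthest from the other two was that of replicate 1 at 414 sites, of replicate 2 at 407 and of replicate 3 at 411. The median distance between a pair of replicates was 136 bp for 1 and 2, 141 bp for 1 and 3 and 135 bp for 2 and 3. In compact regions of 2 replicates, which obey the same width limit, these medians were 147, 141.5 and 153 bp. Each of these pair medians of compact regions was shorter than the fragment length, which the caller estimated at 268, 294 and 249 bp in replicates 1, 2 and 3. The width limit bounds these distances too, so the comparison does not measure how precisely the summits agreed.

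Overlap by merging was not always overlap of all 3 peaks. At 1102 sites (89.4%) some stretch lay inside the strongest peak of every replicate, with a median length of 212 bp. At the other 130 there was no such stretch. Of these, 119 held 1 peak per replicate, so that 2 of the peaks were joined only through that of the third library, and 11 held 4 peaks. All 3 summits lay inside the common stretch at 370 sites (30.0%). Nearly all sites, 1200, held exactly 1 peak per replicate, and 32 held 4 peaks. The peak of replicate 2 was the widest at 621 sites, with a median peak width of 450.5 bp, against 372.5 and 367.5 bp in replicates 1 and 3.

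A small group of sites combined tight summits with a high local background. The local background is the tag level that the caller expected at the summit from the input and its surroundings, and it was recovered here from pileup and fold. It was 5 tags or less at 565 sites, between 5 and 10 at 586, between 10 and 20 at 40 and above 20 at 41, a division drawn after the values were seen. In that order the median summit range was 249, 241, 92.5 and 49 bp, and the share of sites with summits within 100 bp was 9.73%, 12.5%, 52.5% and 82.9%. The median of the mean fold was 3.69, 3.27, 2.86 and 2.62, and above 20 tags the mean fold ranged from 1.43 to 7.40. The median of the mean pileup was 18.0, 21.7, 40.0 and 90.6 tags. Depth at the summit thus moved with summit agreement, and its part in it was not tested. Of the summits of compact sites, 3.73%, 3.49% and 2.68% in replicates 1, 2 and 3 lay over a background above 20 tags, against 0.131% ± 0.129 in compact regions of 1 replicate and 0.609% ± 0.171 in broad shared regions (SD, n = 3). Every replicate of the compact sites was above every replicate of the others. Since background enters the fold and the peak width, this is a description.

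**Figure D3:**
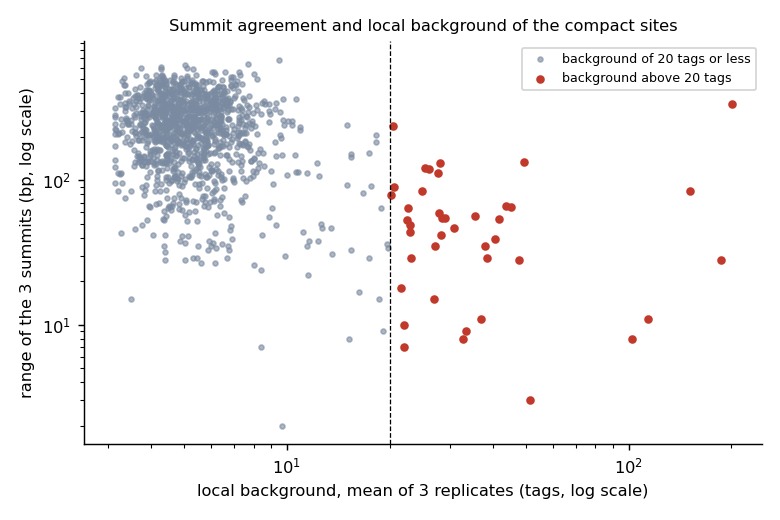
Range of the 3 summits (bp, log scale) against the mean local background (tags, log scale) of the 1232 compact sites, 1 point per site. Most points lie at 3 to 10 tags with ranges above 100 bp, and the 41 sites above 20 tags (dashed line) have a median range of 49 bp.

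The sites with the closest summits show both kinds. The smallest range, 2 bp, was found on chromosome 15 at 100710149 to 100710684, between genes and 5627 bp from LOC105371024, with folds of 2.28, 2.77 and 3.50 and pileups of 30, 25 and 30.5 tags. On chromosome 17 at 43246257 to 43246916 the range was 3 bp, with folds of 2.64, 2.72 and 2.80 on pileups of 127, 168 and 131 tags over a mean background of 51.5 tags. The site in LOC105375592 on chromosome 7, with 7 bp, is the one described above. A site inside ADAMTS17, a metalloprotease gene, on chromosome 15 at 100057892 to 100058566 also had 7 bp, but its fold of 6.36 in replicate 1 stood apart from 3.18 and 3.25 in replicates 2 and 3. The site with the highest mean pileup, 345 tags, lay inside BTNL9, a butyrophilin-like gene, on chromosome 5 at 181045816 to 181046364. Its summits lay within 8 bp and its fold was 3.48, 4.28 and 2.44 over a mean background of 102 tags. The sixth, at an end of CYP4F11, a cytochrome P450 gene, on chromosome 19 at 15933705 to 15934209, also had 8 bp, with folds of 2.54, 2.42 and 4.57.

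The 3 highest backgrounds went with low folds, although the sites near FLT4 and in LOC105375592, with the highest folds, also had backgrounds above 20 tags. On chromosome 21, 3 sites at 8245742 to 8246486, 8386448 to 8386991 and 8469363 to 8470072 had mean backgrounds of 200, 186 and 151 tags. Their mean folds were 1.43 ± 0.0883, 1.57 ± 0.200 and 1.55 ± 0.121 (SD, n = 3). The second lay 1700 bp from MIR6724-3 and the third inside the pseudogene CDC27P11. On chromosome 16 at 1025108 to 1025688, 38438 bp from the transcription factor gene SOX8, the background was 114 tags and the fold 1.95, 3.32 and 2.30, with summits within 11 bp. A site inside AHRR, the repressor of the aryl hydrocarbon receptor, on chromosome 5 at 344358 to 344883 had a background of 47.7 tags and folds of 2.91, 3.39 and 3.09.

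The next comparison asked where the compact sites lay relative to genes, a measure the rule did not use. In replicates 1, 2 and 3, 13.3%, 13.1% and 13.5% of their summits lay at a gene end, that is within 1 kb of either end of a gene (protein-coding or lncRNA), 57.7%, 57.7% and 57.8% elsewhere inside a gene and 29.0%, 29.1% and 28.7% between genes. The gene-end share averaged 13.3% ± 0.162 at compact sites and 10.6% ± 0.646 at compact regions of 1 replicate, a difference of 2.75 percentage points (SD, n = 3). Every replicate of the first group was above every replicate of the second, and the exact two-sided permutation test over replicates gave p = 0.1, the smallest that 3 against 3 can give (0.1 after Benjamini-Hochberg adjustment over the 4 tests made). The 3 shares of the compact sites come from the same 1232 regions, so their SD leaves out the choice of regions. The 95% Wilson intervals, which cover counting error only, were 11.5% to 15.3%, 11.4% to 15.2% and 11.7% to 15.5%. The shares of the regions of 1 replicate, 10.1%, 11.3% and 10.3%, lay below these intervals. In replicate 2 the intervals of the 2 groups overlapped. Without replicate 1 the difference was 0.896 points, without replicate 2 1.87 points and without replicate 3 1.503 points, with sites then asked of 2 lists. It was 1.21 points with a gene-end window of 500 bp, 4.13 with 5 kb, 1.75 with a width limit of 600 bp and 10.3 at −log10 q of 5 or more.

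The gene-end share of the broad shared regions was 14.2% ± 0.130 (SD, n = 3), and compact minus broad was -0.887 percentage points, with p = 0.1 in the same exact permutation test. Every replicate of the broad regions was above every replicate of the compact sites, and 0.1 is the smallest p that 3 against 3 can give. All 3 broad values lay inside the Wilson intervals of the compact sites, which cover counting error only. Whether the 2 groups differ was therefore not settled. The difference depended on the window: it was -5.42 points within 5 kb of a gene end and -0.578 within 500 bp (exact permutation p = 0.2). Smaller differences were also found at −log10 q of 3 or more (-0.649), with protein-coding genes only (-0.796) and without sites over a background above 20 tags (-0.765). The difference was -2.02 points when peaks had to overlap by 100 bp. With width limits of 600 and 1000 bp it was -1.92 and -1.52, and -1.41 with peaks up to 100 bp apart merged. It was -2.004 points without replicate 1 and -1.86 without replicate 3. With −log10 q of 5 or more it turned, to 6.10 points higher at the 86 compact sites left. Between genes the compact sites had 29.0% ± 0.204, against 26.1% ± 0.0651 at broad regions, a difference of 2.87 points (SD, n = 3, exact permutation p = 0.1). Both SDs leave out the choice of regions. The broad shares, 26.0%, 26.1% and 26.1%, lay just below the Wilson intervals of the compact sites, which began at 26.5%, 26.7% and 26.3%. The intervals of the broad regions reached 26.9%, 27.0% and 27.0%, so those of both groups overlapped in every replicate. Without the 41 sites over a high background the difference from broad regions was 1.85 points, and 24 of those 41 sites lay between genes with all their summits. Without replicate 3 it was 1.37 points, with a gene-end window of 5 kb 1.73, with protein-coding genes only 4.40 and at −log10 q of 5 or more 12.4. Against compact regions of 1 replicate (30.4% ± 0.911) the difference in share between genes was -1.42 points (SD, n = 3, exact permutation p = 0.1), -2.31 without replicate 3 and -0.763 without replicate 1. The shares of the regions of 1 replicate, 31.2%, 29.4% and 30.6%, lay inside the Wilson intervals of the compact sites. The difference was -0.266 points at −log10 q of 3 or more (exact permutation p = 0.7), -0.379 with a width limit of 600 bp and -0.503 with peaks up to 100 bp apart merged (exact permutation p = 0.5 for both). It was -0.853 with a gene-end window of 500 bp (exact permutation p = 0.3) and -2.37 with 5 kb. This difference also turned at −log10 q of 5 or more, where the compact sites were 9.08 points higher.

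**Figure D4:**
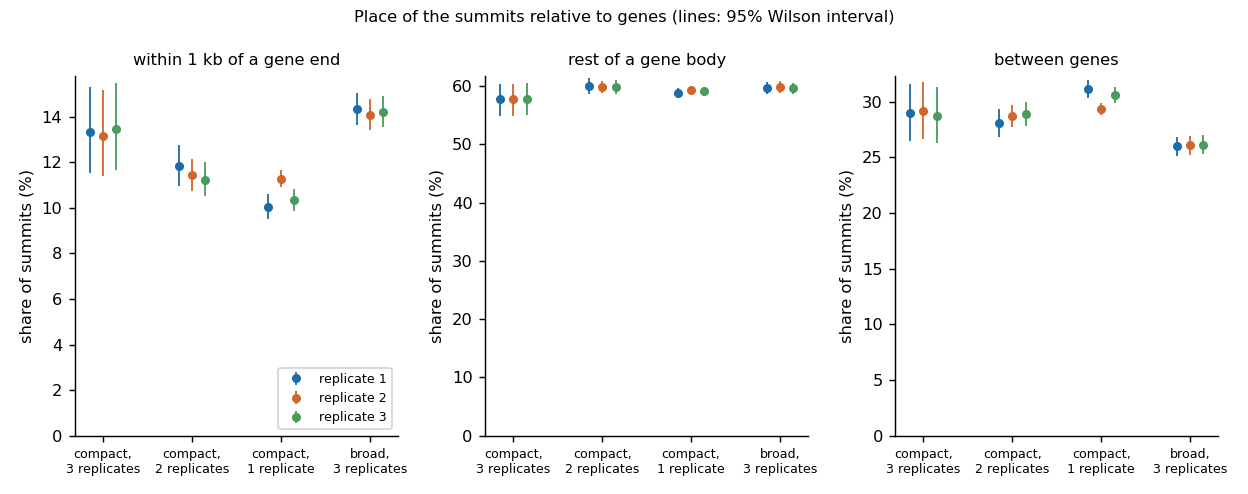
Share of summits (%) within 1 kb of a gene end, elsewhere inside a gene and between genes, for 4 classes of merged region in replicates 1, 2 and 3, with 95% Wilson intervals as lines. The gene-end share of compact sites, 13.1% to 13.5%, lies above that of compact regions of 1 replicate, 10.1% to 11.3%, and its intervals hold the shares of broad regions.

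At listed gene starts the compact sites stood above the regions of 1 replicate, as at gene ends. Every replicate of the compact sites was also above every replicate of the broad regions, the reverse of the order within 1 kb of gene ends. Summits within 1 kb of a start of a protein-coding gene made up 5.57%, 5.49% and 5.74% of the compact sites, a mean of 5.60% ± 0.129, against 3.54% ± 0.124 in compact regions of 1 replicate and 5.18% ± 0.0465 in broad shared regions (SD, n = 3). The shares of the broad regions were 5.23%, 5.13% and 5.19% in replicates 1, 2 and 3. They lay inside the Wilson intervals of the compact sites, 4.40% to 7.02%, 4.33% to 6.93% and 4.55% to 7.21%. These intervals cover counting error only. The share at starts was added after seeing the promoter table, and its differences were not tested. By the middle of the 3 summits, 26 sites lay upstream of the nearest start within 1 kb and 41 downstream. Windows of chromosome 8 were not in this measure, which left 1185 compact sites. The median distance to a gene end was 6668 bp at compact sites, 7904 bp at compact regions of 1 replicate and 5483 bp at broad regions, and 87 compact sites (7.06%) were over 50 kb from any gene end.

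Compact sites with all 3 summits within 1 kb of 1 gene end marked 103 protein-coding genes, 0.543% of the 18973 on chromosomes 1 to 22. Broad regions did so at 532 (2.80%). Of the 103 genes, 46 had the site at the 5′ end, 33 at the 3′ end and 26 at an end whose direction the promoter table did not give, with 2 genes counted at both ends. For broad regions the shares were alike, with 44.2% at the 5′ end against 44.7% for compact sites. The mean fold at the 103 genes had a median of 3.43, near the 3.46 of all compact sites.

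Among protein-coding genes, the one with the highest fold at an end was HSPA9, which encodes mortalin, the mitochondrial Hsp70 chaperone. Its site on chromosome 5 at 138574746 to 138575434 had folds of 5.80, 4.12 and 4.78 in order of replicate, averaging 4.90 ± 0.846 (SD, n = 3), on pileups of 35, 22 and 27.7 tags. The summits lay inside the gene, 241, 210 and 200 bp from its 5′ end and within 41 bp of each other, where the lncRNA gene LOC105379193 overlaps it. DDIT4, a stress-induced inhibitor of mTOR signalling, had a site 515, 520 and 614 bp from its 5′ end (chromosome 10, 72273043 to 72273587), with folds of 3.86, 4.57 and 5.75 and a mean of 4.73 ± 0.955 (SD, n = 3). ADNP, a chromatin regulator gene, had folds of 5.98, 3.52 and 4.62 at a site 786 to 893 bp from its 5′ end (chromosome 20, 50930227 to 50930868), the widest spread of these 3 genes (4.71 ± 1.23; SD, n = 3).

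TMEM270, a membrane protein gene, had folds of 4.61, 4.28 and 5.20 near its 5′ end, on chromosome 7 at 73861135 to 73861861. SLC7A1, a cationic amino acid transporter gene, had 3.61, 3.43 and 5.57 near its 5′ end, on chromosome 13 at 29594785 to 29595544, so that replicate 3 alone was high. At KCNMA1, the gene of a calcium-activated potassium channel, the fold was high in replicate 1 and low in replicate 2 (5.01, 3.00 and 4.24). The pileups of that site, on chromosome 10 at 77638137 to 77638861, were 34, 34 and 20.0 tags. Replicates 1 and 2 thus differed there in local background and not in pileup. Even folds were found at DDX17, an RNA helicase gene (4.10, 4.12 and 3.82; chromosome 22, 38505364 to 38505957), and at RAD23B (3.88, 4.12 and 4.00; chromosome 9, 107283453 to 107284062). RAD23B encodes a partner of the damage sensor XPC in nucleotide excision repair, and its summits lay 501, 423 and 455 bp from the 5′ end. CCK, the cholecystokinin gene (4.06, 3.68 and 4.29), and ISX, an intestinal homeobox gene (4.49, 3.32 and 3.64), also had their sites at the 5′ end.

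Other genes of the 20 were LOC128966594 (mean fold 4.46), CIMIP3 (4.39), NHLRC4 (4.35), the kinase gene STK33 (4.09), LOC124905115 (4.07), OLFML3 (3.87), the filamin-binding gene FBLIM1 (3.86), NRROS (3.84) and FAM246C (3.78). Across the 20, 14 had the site at the 5′ end and 3 at the 3′ end. The direction of the end was not given for the others, LOC128966594 and STK33 among them. LOC128966594 was the least even, with folds of 2.93, 6.04 and 4.40. The remaining 83 genes had mean folds from 2.56 to 3.77.

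Of 1067 genes on the 17 lists examined, 4 had a compact site at an end, a rarity shared with protein-coding genes at large (0.543%). No gene of 21 in base excision repair had one, nor of 26 AP-1 and early growth response genes, 24 p53 targets, 20 Wnt targets, 25 colon epithelium genes or 34 striated muscle genes. Endothelium (18 genes), blood cells (28), proteasome (38), cytosolic ribosomal proteins (77), replication-dependent histones (69), KLF and SP factors (26), ZNF genes (497), keratins (55) and collagens (42) had none either. The share over all protein-coding genes, 0.543%, is the background of these counts. Heat shock protein genes had 2 of 28 (7.14%), HSPA9 and HSPA1A, and HOX genes had 2 of 39 (5.13%). HSPA1A, which encodes the inducible Hsp70, had folds of 3.06, 4.55 and 3.03 near its 3′ end on chromosome 6 at 31817220 to 31817923. HOX genes specify position along the body axis, and of these HOXB7 had 3.63, 3.56 and 3.00 (chromosome 17, 48606763 to 48607441) and HOXD9 had 3.81, 2.68 and 3.47 (chromosome 2, 176124696 to 176125393). The lists were described by counts and not tested.

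None of the genes given whatever their values had a compact site at an end. From NEIL1 itself the nearest compact site was 56.3 kb away, from NEIL2 167 kb, from OGG1 407 kb and from NTHL1 13.6 kb; all encode glycosylases for oxidised bases. The early response genes FOS, JUN, EGR1 and MYC were 299, 3782, 106 and 376 kb from the nearest one.

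Compact sites lay near broad ones. The nearest broad shared region was within 5 kb of 670 compact sites (54.4%), with a median gap of 3773 bp. For compact regions of 2 replicates the share was 43.2%, and for those of 1 replicate 27.7%. This difference was not tested. By chromosome, compact sites were most numerous on chromosome 1 (123), chromosome 17 (110) and chromosome 19 (85). These were 9.98%, 8.93% and 6.90% of the compact sites. The same chromosomes held 10.9%, 8.07% and 5.58% of compact regions of 1 replicate and 10.3%, 11.3% and 6.33% of broad regions. Of the shared regions of a chromosome, compact ones made up from 8.81% on chromosome 17 to 14.9% on chromosome 21.

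The threshold of 800 bp cut through a continuous range of widths, with 476 sites over 700 bp and 531 shared regions up to 100 bp above the limit. Of the 9 sites of exactly 800 bp, the 3 with the lowest start coordinates had mean folds of 3.85 (inside GNA15 on chromosome 19), 4.02 (near CITED4 on chromosome 1) and 3.51 (inside ANK1 on chromosome 8), with summit ranges of 278, 100 and 534 bp. Of the 5 shared regions of 801 bp, just outside, the 3 chosen in the same way had mean folds of 4.07 (inside CTIF on chromosome 18), 2.72 (between genes on chromosome 16) and 3.59 (inside LINC00475 on chromosome 9), with ranges of 320, 402 and 523 bp.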

How the data were processed

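AcNEIL1 ChIP-seq peak lists of 3 HCT116 libraries were used; the 3 inputs entered only as controls of these lists. Peaks were called by the authors with MACS 2.1.1.20160309 for each replicate alone, single-end, at a q cutoff of 0.05, with at most 2 tags per position and the larger library scaled to the smaller, per the file headers. The submitters' processing notes also list Trim Galore, FastQC, cutadapt, Bowtie2, SAMtools and bedtools; no versions of these are given in the sources used here. The deposited signal is the pileup at the summit, in extended tags. The deposited −log10 values are the caller's p and q. The deposited fold is the ratio of pileup to local background with 1 added to each, and is the authors' own value per peak. Tags after the duplicate filter were 31921768, 28814429 and 35222701 for ChIP replicates 1, 2 and 3 and 32877739, 37772127 and 33606858 for their inputs, per the file headers; peak lists give no counts outside peaks. The lists held 39655, 59750 and 49482 peaks on chromosomes 1 to 22, of which 3.12%, 2.07% and 2.53% lay in compact sites.

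Merging, summits (the peak with the highest fold of a replicate in a region), gene classes and the permutation test were computed with Python 3.11.15, pandas 2.3.3, numpy 2.4.6 and scipy 1.17.1 and tested on simulated data. Genes were those of a RefSeq table of GRCh38.p14, which held 18973 genes of proteins and 17525 of lncRNA on chromosomes 1 to 22. Directions and sequences came from RefSeq promoter windows, of which those on chromosome 8 were not used here. All coordinates are 1-based in hg38. Shares of summits were compared over replicates with the exact two-sided permutation test. Named regions were the 10 highest in mean rank of fold, the 6 with the closest summits and those next to the width limit; named genes were the 20 with the highest fold at an end, of which 1 is not reported here, up to 2 of each list, promoters with 3 summits and a fixed set. The sites of highest local background were chosen after seeing the data. The members and lists were chosen with earlier results of these data known.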

Additional observations from a re-analysis of the deposited data

Results flagged for a closer look

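Compact sites with a peak in every replicate also occurred outside chromosomes 1 to 22, to which the comparisons were limited. On chromosome X there were 5, with median folds of 3.67, 3.63 and 3.50 in replicates 1, 2 and 3 and a median summit range of 76 bp. On unlocalised and unplaced scaffolds there were 4, with median folds of 3.72, 2.87 and 2.95 and a median summit range of 95 bp.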

How the results depend on the processing

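The number of compact sites followed the peaks and widths admitted. Asking a −log10 q of 3 or more left 642 and of 5 or more 86. The number was 381 with a width limit of 600 bp and 2342 with 1000 bp, and 5450 to 7305 with 1 list dropped and a peak from both others. It stayed within 1.5 times under 4 other settings. The median summit range was 228.5 and 114.5 bp at −log10 q of 3 and 5, 230 bp when an overlap of 100 bp was asked, 165 and 296 bp with limits of 600 and 1000 bp, 143 to 149 bp between the 2 summits left without 1 replicate, 241 bp without the sites over a background above 20 tags and 218 bp where a stretch lay in every replicate's peak; the last 2 settings were chosen after seeing the data. Of the 4 differences in shares, those in gene-end share against regions of 1 replicate (0.896 to 10.3 points) and in share between genes against broad regions (1.37 to 12.4 points) kept their direction under all 17 alternatives. The difference in gene-end share against broad regions reversed under 1, −log10 q of 5 or more (6.10 points), as did that in share between genes against regions of 1 replicate (9.08 points). The region classes of a replicate come from 1 library, and a replicate block was added after seeing the data. It changes the test and cannot change the mean difference, although it is counted among the 17 alternatives. The differences were 2.75 and -0.887 points in gene-end share (against regions of 1 replicate and broad regions) and -1.42 and 2.87 points in share between genes. Each had the same sign in 3 of 3 replicates and p = 0.25 in the exact sign-flip test, the smallest it can give. With 3 replicates no test could pass 0.05, and without a replicate the smallest p was 0.333.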

Other observations

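Some compact sites lay within 1 kb of small RNA genes, and these were chosen after their values were seen. Genes of microRNAs, short RNAs that repress target messages, were near 4 sites (0.325%, against 0.387% of compact regions of 1 replicate and 0.566% of broad regions). The site 113 bp from MIR152, inside COPZ2 on chromosome 17 at 48036863 to 48037639, had folds of 2.48, 2.73 and 3.25 in replicates 1, 2 and 3. The site 169 bp from MIR486-1, inside the ankyrin gene ANK1 on chromosome 8 at 41660195 to 41660920, had 3.11, 3.63 and 3.25. MIR4295, inside VTI1A on chromosome 10, was 762 bp from a site with 3.81, 3.64 and 2.32, and MIR1302-10 on chromosome 15 was 568 bp from one with 2.28, 2.45 and 2.84. The snRNA gene LOC124904137 was 784 bp from the site on chromosome 17 whose summits lay within 3 bp. That is 1 site, or 0.0812%, against 0.0108% of compact regions of 1 replicate and none of the broad regions.

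Compact sites within 20 kb of each other formed 3 groups of 4. In MICAL2, the gene of an actin-oxidising enzyme, on chromosome 11, the 4 sites spanned 19.8 kb with mean folds from 3.68 to 4.52, backgrounds from 3.21 to 4.25 tags and a median summit range of 303 bp. On chromosome 15 at 75285490 to 75291142, 4 sites around GOLGA6D had mean folds from 2.53 to 3.34, backgrounds from 6.88 to 11.5 tags and a median summit range of 206.5 bp. On chromosome 17 at 43231357 to 43253648, 4 sites had mean folds from 2.72 to 3.46, backgrounds from 12.6 to 51.5 tags and a median summit range of 57 bp. The groups differ in local background, and its part in the summit range was not tested.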
